A study of Allium sativum with 18 samples.

Results

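Bulbs of the garlic variety Ershuizao under enlarging growth were compared with Ershuizao bulbs before enlargement, to find the genes whose transcript abundance changes as cloves swell. The comparison rests on 6 of the 18 RNA-sequencing libraries of the study, and 29639 of the 57561 genes in its table entered it, those whose FPKM (fragments scaled to gene length and to the library total) reached 0.5 in 3 or more of the Ershuizao libraries. The study sequenced 3 varieties at both growth stages, and the other 2, Chalingzipisuan and Yuanjiangyangsuan, appear here only as the background for Ershuizao. The enlarging group was 3 Ershuizao plants whose bulbs were collected in March 2020 while enlarging, and the group before enlargement was 3 Ershuizao plants collected in February 2020, before bulb growth had started. All 6 plants were of the same cultivated variety, grown on 1 farm from a planting in October 2019, with no treatment, and each library came from 1 individual. Stage and collection month coincide, so that plant age, season and bulb growth cannot be told apart. GEO's labels call the tissue leaf but name the stage by the bulb, and the study's methods describe bulbs. The table gives gene identifiers without names, so that the tissue could not be checked against markers, and gene names below are those the study gives.

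A garlic clove is a swollen axillary bud, and the bulb is a group of such buds that form storage tissue as days lengthen. In onion and potato, day length is read through the circadian clock and CDF proteins, and the signal reaches the storage organ through members of the FT family. Gibberellin, a growth hormone whose signal DELLA proteins repress, is known in potato to hold back tuber formation.

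Ershuizao bulbs changed broadly between the stages. At the study's thresholds (P under 0.05 and a change of more than 2-fold), 3840 genes were called, 13.0% of those tested by limma. Of these, 1574 genes (5.31%) were higher and 2266 genes (7.65%) were lower in the enlarging bulbs, so that 59.0% of the called genes were lower. With Benjamini-Hochberg adjusted p under 0.05 and the same fold, 630 genes (2.13%) were higher and 768 genes (2.59%) were lower, 1398 in all (4.72%), and 1666 genes (5.62%) passed the adjusted threshold at any fold. The libraries of the stages did not overlap for 1430 of the called higher and 2088 of the called lower genes, and for 33.2% of all genes tested, called or not. The median log2 fold change was 1.46 among the called higher genes, -1.54 among the called lower genes and -0.03 over all genes tested.

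The largest changes were mostly decreases. More than 4-fold, 263 genes were called higher and 605 lower. More than 8-fold, the counts were 33 higher and 143 lower, and more than 16-fold they were 8 higher and 47 lower. These folds are on the log2(FPKM + 0.5) scale, which understates the change of genes of low abundance. In bulk tissue, fewer cells of a type and less RNA per cell cannot be told apart.

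**Figure D1:**
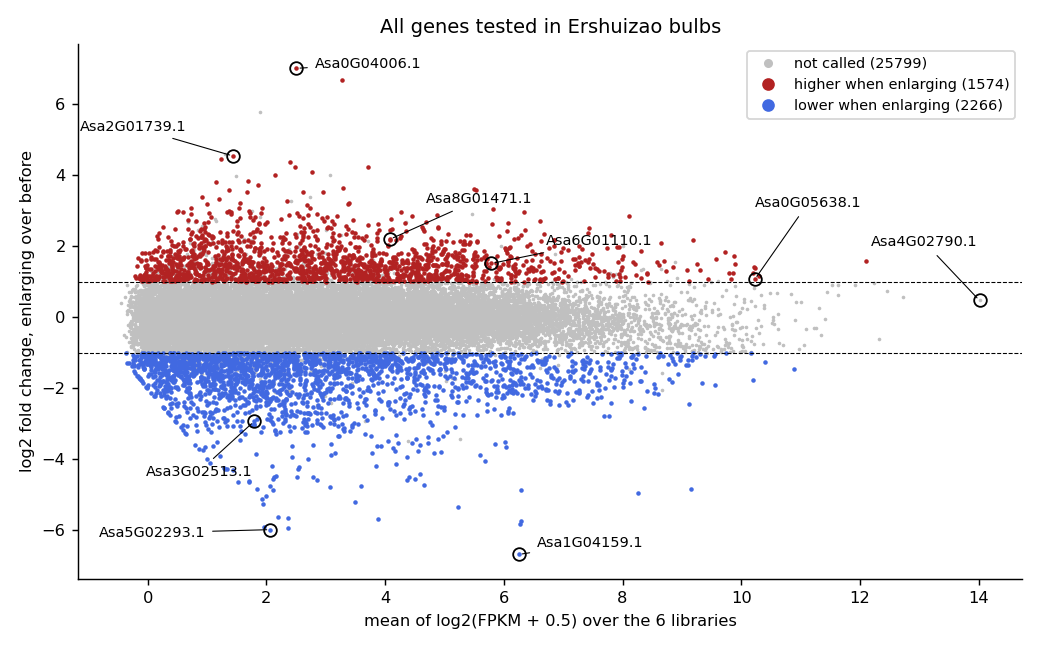
Each point is 1 of the 29639 genes tested in Ershuizao bulbs, with the mean log2(FPKM + 0.5) of the 6 libraries on the x axis and the log2 fold change, enlarging over before, on the y axis. Red marks the 1574 genes called higher and blue the 2266 called lower when enlarging, dashed lines mark a 2-fold change, and circles mark genes named in the text; 8 red and 47 blue genes lie beyond a 16-fold change.

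The 3 enlarging libraries were less alike than the 3 libraries before enlargement. The median SD of log2(FPKM + 0.5) over genes was 0.322 among the enlarging libraries and 0.256 among those before enlargement. On the first principal component (54.9% of the variance) the enlarging libraries lay at 74.1, 22.6 and 104.1 and the earlier ones at -42.4, -91.6 and -66.9, so that the stages did not overlap. Enlarging replicate 2 stood apart on the second component (17.3%), at 85.8, and its Pearson correlation across genes was 0.934 and 0.915 with enlarging replicates 1 and 3, against 0.936 with replicate 1 before enlargement. Without enlarging replicate 2 the counts were 2093 higher and 2859 lower, and 1338 and 2006 with adjusted p under 0.05. Each other omission lowered the total with adjusted p, to 367 and 515 without enlarging replicates 1 and 3, and to 662, 114 and 35 without replicates 1, 2 and 3 before enlargement. At the study's thresholds these 5 omissions gave 1289 to 1800 higher and 1483 to 2219 lower genes, the 1483 being without replicate 2 before enlargement.

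Enlarging replicate 2 also held 45 genes more than 4-fold above all 5 other libraries, 9 of them called higher and none with adjusted p under 0.05. Such genes numbered 44 in enlarging replicate 1, 33 in enlarging replicate 3 and 0 to 20 in the libraries before enlargement. Genes more than 4-fold below all others were most numerous in enlarging replicate 3, at 100. They numbered 1 and 14 in enlarging replicates 1 and 2, and 4 to 9 before enlargement. Among the 45 of enlarging replicate 2 was Asa0G04006.1, chosen after its values were seen. This gene was at 12.8, 5609 and 3.10 FPKM in enlarging replicates 1, 2 and 3 and at 0 in all 3 libraries before enlargement. Its log2 change of 7.01 ± 2.46 (SE) passed the study's thresholds (adjusted p = 0.128, limma). That call was lost when any 1 of the 3 earlier libraries was left out (7.01 each time) and with limma's voom on fragments (9.64).

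**Figure D2:**
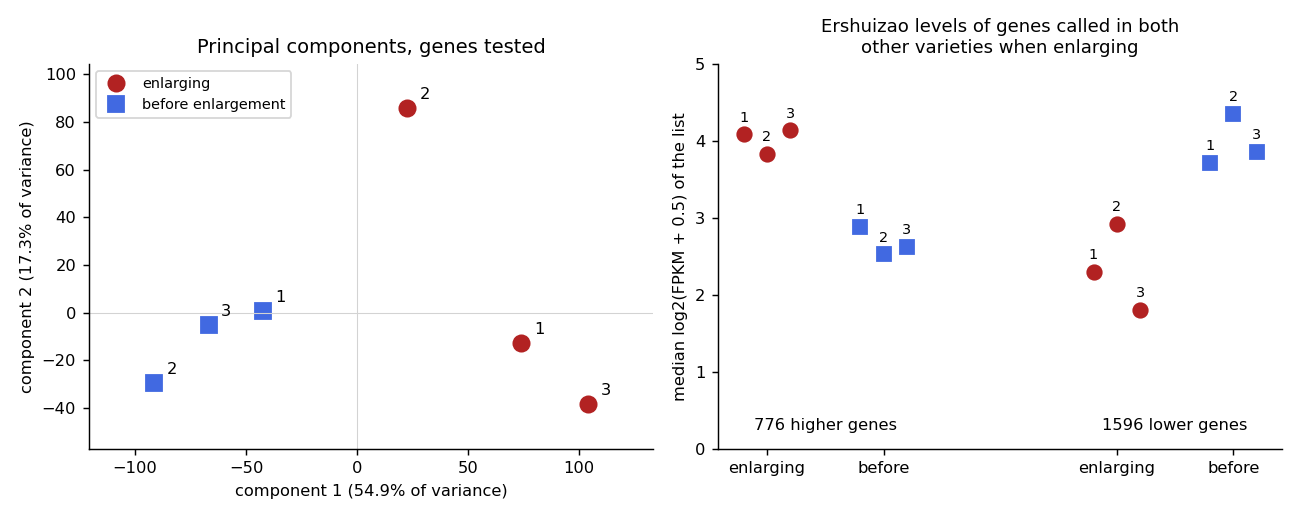
Left, the 6 Ershuizao libraries on the first 2 principal components of the genes tested, with replicate numbers; the stages separate on component 1 and enlarging replicate 2 lies at 85.8 on component 2. Right, the median log2(FPKM + 0.5) in each Ershuizao library of the 776 genes higher and the 1596 genes lower when enlarging in both other varieties; the enlarging libraries lie at 3.83 to 4.13 and at 1.80 to 2.92, the earlier ones at 2.53 to 2.88 and at 3.71 to 4.35.

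Among the genes with adjusted p under 0.05 and no overlap between stages, the 2 largest rises and the 2 largest falls were in genes that the table does not name. Asa2G01739.1 had 5.38, 14.9 and 24.2 FPKM in the enlarging bulbs, against 0, 0 and 0.211 FPKM before enlargement. Its log2 fold change was 4.54 ± 0.52 (adjusted p = 0.00974, limma), and 327 fragments when enlarging against 2 before gave a ratio per sequenced fragment of 190 (exact 95% interval 52.1 to 1573, counting error only). Asa5G04686.1 had 10.6, 10.8 and 10.1 FPKM when enlarging and was at 0 in all 3 libraries before. It was at least 13.1-fold higher than the floor of 3 fragments per library (adjusted p = 0.00121).

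Asa1G04159.1 was 63.2-fold lower in the enlarging bulbs by the ratio of the means. It had 22.9, 13.4 and 0.801 FPKM when enlarging, against 648, 949.7 and 750.3 FPKM before, with a log2 change of -6.69 ± 0.98 (adjusted p = 0.0184, limma). Asa5G02293.1 had 0, 0 and 0.0818 FPKM when enlarging, against 35.5, 34.2 and 29.2 FPKM before. Here 1 fragment against 1342 gave a ratio per sequenced fragment, before over enlarging, of 1156 (exact 95% interval 207 to 45710, counting error only). At the study's thresholds the calls of these 4 genes held under the alternatives in which each was still tested. Leaving out any 1 enlarging library took Asa2G01739.1 and Asa5G04686.1 below the abundance filter, and leaving out any 1 earlier library took Asa5G02293.1 below it. Each of these passed the filter only through the stage where it was high, so that it had to differ to be tested.

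Few genes were restricted to 1 stage. An FPKM of 0.5 or more in each enlarging library with 0 in each earlier one was found for 11 genes. The opposite, 0 in each enlarging library and 0.5 or more in each earlier one, was found for 35 genes. The genes seen only when enlarging had mean FPKM of 1.11 to 1875 there (median 4.11), the highest being the uneven Asa0G04006.1. The genes seen only before had mean FPKM of 0.727 to 30.3 (median 2.01). These counts grew when a library was left out. Without enlarging replicates 1, 2 and 3 the 11 became 19, 50 and 21 and the 35 became 73, 86 and 54. Without replicates 1, 2 and 3 before enlargement the 11 became 32, 23 and 25 and the 35 became 63, 46 and 52.

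In the photoperiod list, 2 of 5 genes rose, none fell, and 3 did not pass, beside 5.31% of all genes tested called higher and 7.65% called lower, with a median log2 change of 0.59 against -0.03 over all genes tested. Asa8G01471.1, homologous to CDF2, whose family represses flowering regulators in Arabidopsis and acts in potato tuber formation, had 39.8, 32.2 and 35.6 FPKM in the enlarging bulbs and 16.2, 5.02 and 4.86 FPKM before enlargement. Every enlarging library lay above every earlier one. Its mean was 35.9 ± 3.82 FPKM when enlarging and 8.71 ± 6.53 FPKM before (SD, n = 3 each), with a log2 change of 2.20 ± 0.43 (adjusted p = 0.0364, limma). Over 16 alternatives the change stayed between 1.92 and 2.74 and was called, but its limma adjusted p reached 0.141.

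The TGA4-like genes encode proteins related to a basic leucine zipper transcription factor of Arabidopsis. Asa2G04763.1 had 25.8, 14.2 and 17.6 FPKM when enlarging and 9.59, 5.52 and 8.12 FPKM before, with no overlap, and rose by a log2 change of 1.25 ± 0.28 (unadjusted P = 0.003, adjusted p = 0.0513, limma). This call was lost when all 18 libraries shared 1 estimate of the spread (unadjusted P = 0.111). The other TGA4-like gene, Asa6G01159.1, was rarer and overlapped, at 1.65, 0.531 and 1.07 FPKM when enlarging and 0.633, 0.107 and 0.988 FPKM before. Its log2 fold change was 0.59 ± 0.45 (adjusted p = 0.444, limma).

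The FT-like gene Asa6G06199.1, of the family that carries the flowering and bulbing signal, did not pass. It had 15.7, 5.68 and 5.89 FPKM in the enlarging bulbs and 8.86, 4.74 and 4.25 FPKM before. Enlarging replicate 1 alone lay above all earlier libraries, and the log2 fold change was 0.49 ± 0.44 (adjusted p = 0.526, limma). The ELF4-like gene Asa2G00681.1, related to a clock gene of Arabidopsis, had 13.0, 3.93 and 7.40 FPKM when enlarging and 11.8, 8.42 and 15.3 FPKM before. Its log2 change of -0.62 ± 0.42 was not called, but without enlarging replicate 1 it was -1.02 and was called (adjusted p = 0.204, limma).

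Of the 9 gibberellin genes, 8 passed the abundance filter, of which 5 were called higher and 1 lower, beside 5.31% and 7.65% of all genes tested. The 5 include Asa5G04732.1, which passed the filter only through the enlarging libraries. The median log2 fold change of the 8 was 1.29, against -0.03 over all genes tested. The study chose many of the photoperiod and gibberellin genes with these libraries in view, so that their counts are not independent evidence of a direction.

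Asa6G01110.1, the ortholog of the potato tuber-forming transcription factor gene BEL5, was among the more abundant. It had 98.1, 66.9 and 122.8 FPKM in the enlarging bulbs and 45.3, 23.6 and 31.4 FPKM before. The stages did not overlap, and the means were 95.9 ± 28.0 FPKM when enlarging and 33.4 ± 11.0 FPKM before (SD, n = 3 each), a log2 change of 1.51 ± 0.30 (adjusted p = 0.0372, limma). Over all alternatives the change stayed between 1.29 and 1.75 and was called at the study's thresholds. Its limma adjusted p was less stable. It was 0.128 and 0.145 without replicates 2 and 3 before enlargement, and 0.117 and 0.091 without enlarging replicates 1 and 3. With plain moderation it was 0.0588.

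The gibberellin oxidase gene Asa0G05638.1, named GA20ox in the study, was the most abundant of the listed genes. GA20ox enzymes are known in other plants for a late step of gibberellin synthesis. The study instead describes GA20ox as an enzyme that breaks down active gibberellins. Which of these roles the garlic gene has was not tested. Asa0G05638.1 had 2342, 1221 and 1829 FPKM when enlarging and 1301, 449 and 974 FPKM before. The stages overlapped, since enlarging replicate 2 lay below replicate 1 before enlargement. The log2 fold change of 1.07 ± 0.42 was called at unadjusted P = 0.039 (adjusted p = 0.162, limma). The call was lost without replicate 2 before enlargement, where the value was 0.62, and also without replicate 3 before (1.18), enlarging replicate 1 (0.85) or enlarging replicate 3 (1.03), and with plain moderation (unadjusted P = 0.0507). The second GA20ox gene, Asa4G02474.1, was at 0 in all 3 enlarging libraries and at 0, 0.0702 and 0.0562 FPKM before, which is at most 1 fragment per library, and was not tested. The DELLA gene Asa2G00237.1, homologous to SLR1, a repressor of gibberellin signalling in rice, had 0.950, 1.26 and 0.708 FPKM when enlarging and 0.803, 0.531 and 0.602 FPKM before, and did not pass (log2 fold change 0.35 ± 0.29, limma adjusted p = 0.477).

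The other 5 gibberellin-related genes, known by identifier alone, held 3 of the 5 rises of the list and its fall. The study's main text does not name them, and they were taken as gibberellin-related from an earlier account of these data. Asa3G03395.1 had 13.0, 16.6 and 15.5 FPKM in the enlarging bulbs and 3.16, 3.25 and 1.86 FPKM before, and rose by a log2 change of 2.28 ± 0.24 (adjusted p = 0.00747, limma). Asa3G02513.1 moved the other way, with 1.00, 0.385 and 0.980 FPKM when enlarging and 11.8, 8.75 and 7.23 FPKM before, and fell by 2.94 ± 0.32 on the log2 scale (adjusted p = 0.00778). Neither overlapped between stages.

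Asa5G04732.1 was seen only in the enlarging bulbs, at 2.09, 2.25 and 7.97 FPKM, and was at 0 in all 3 earlier libraries. It was at least 6.66-fold higher than the floor of 3 fragments per library (adjusted p = 0.0238, limma). This gene passed the abundance filter only through the enlarging libraries, so that it had to differ to be tested. Its limma adjusted p was 0.0967 with all 18 libraries in 1 fit, and 0.0623 to 0.116 without any 1 earlier library. Asa6G02235.1 had 0.966, 1.30 and 2.36 FPKM when enlarging and 0.643, 0.236 and 0.567 FPKM before, values that rest on 4 to 10 and on 1 to 3 fragments per library. Its call (log2 fold change 1.02 ± 0.36, limma adjusted p = 0.131) was lost with a pseudocount of 1 (0.75), with voom (1.47), without replicate 2 before enlargement (0.83) and when enlarging replicate 3 was left out (0.75). Asa6G01479.1 had 12.0, 0.334 and 1.90 FPKM when enlarging and 0.964, 0.304 and 0.364 FPKM before, so that enlarging replicate 1 set its mean. It did not pass at a log2 change of 1.54 ± 0.91 (adjusted p = 0.326), and without enlarging replicate 2 it was called at 2.45.

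Of the 5 bud outgrowth and auxin genes, 4 were tested and 0 were called by limma or limma voom, beside 13.0% of all genes tested called by limma. By either tool 1 of the 4 had an unadjusted P under 0.05. The TB1-like gene Asa2G00245.1, related to the maize repressor of branching, was below the abundance filter, at 0.235, 0.253 and 0.296 FPKM in the enlarging bulbs and 0, 0.131 and 0 FPKM before, without overlap. The AXR1-like gene, needed in Arabidopsis for the auxin response, appears in the study under a pair of identifiers. Asa2G00503.1 did not overlap, with 21.1, 21.9 and 25.0 FPKM when enlarging and 31.0, 33.9 and 31.2 FPKM before, but its log2 change of -0.49 ± 0.13 was under 2-fold (unadjusted P = 0.00698, adjusted p = 0.0724, limma). Asa2G00253.1 had 9.35, 3.67 and 10.8 FPKM when enlarging and 3.30, 5.70 and 4.33 FPKM before. It was not called at a log2 change of 0.68 ± 0.41, and was called at 1.12 without enlarging replicate 2. The YUCCA-like gene Asa2G02184.1, of an auxin synthesis family, and the TOPLESS-related gene Asa4G00255.1, of a co-repressor family, overlapped between stages and stood at -0.32 ± 0.37 and -0.26 ± 0.44. Without enlarging replicate 2 the value of Asa4G00255.1 was 0.06.

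**Figure D3:**
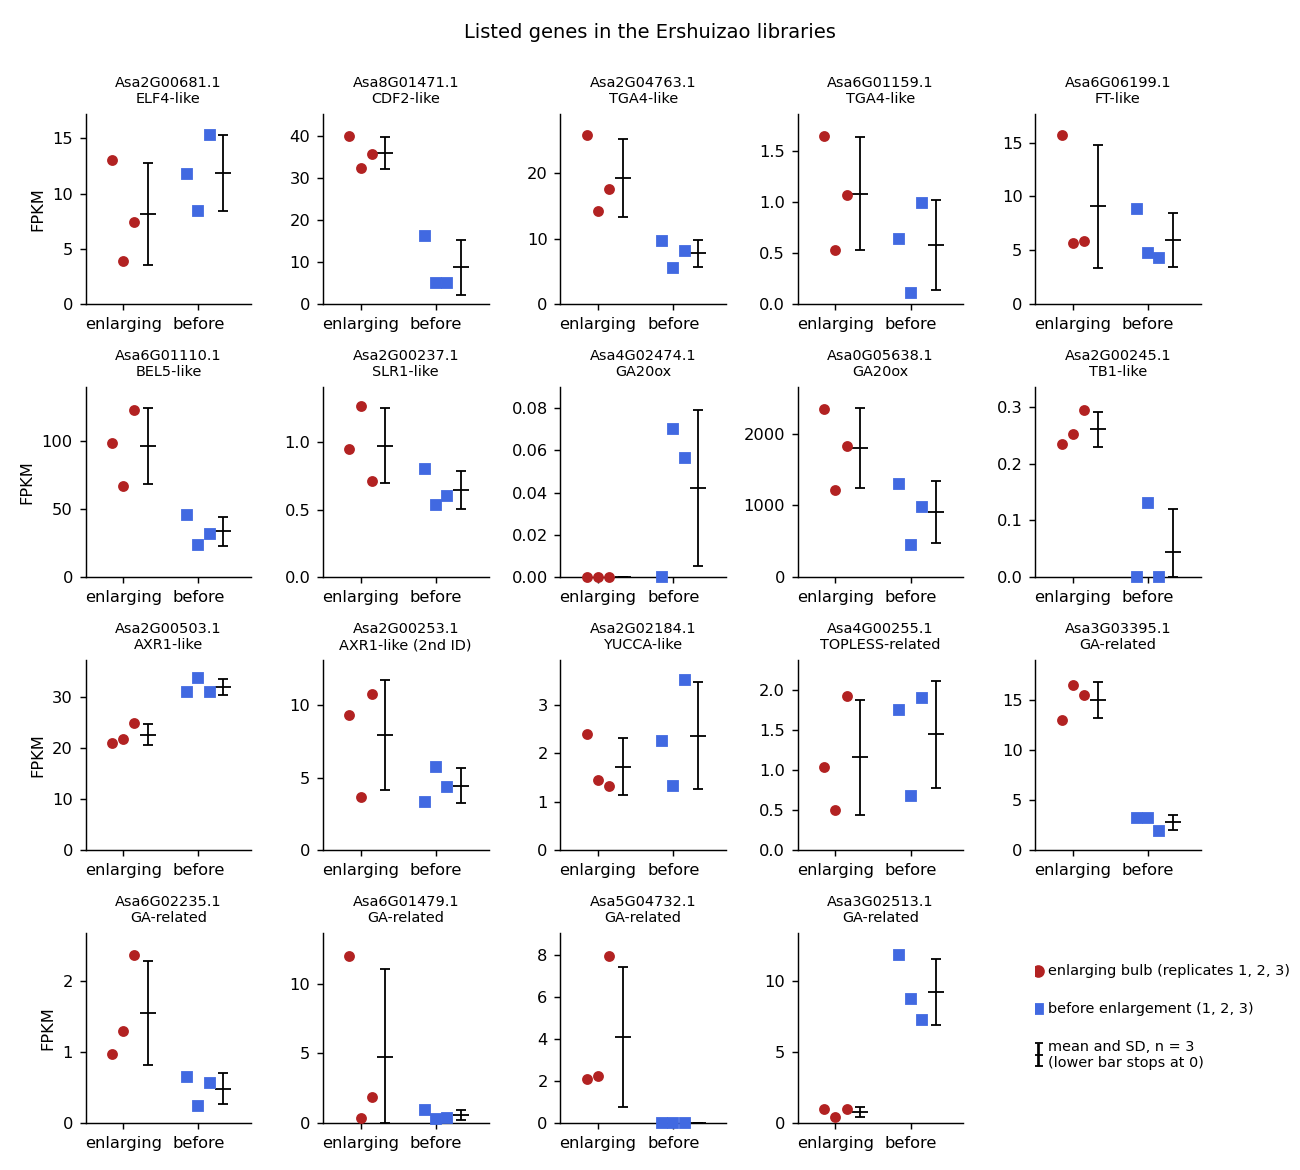
FPKM of the 19 listed photoperiod, gibberellin and bud outgrowth genes in the 3 enlarging libraries (red circles) and the 3 libraries before enlargement (blue squares), in replicate order, with the mean and SD of each stage; each panel has its own linear axis starting at 0. The CDF2-like Asa8G01471.1 and the BEL5-like Asa6G01110.1 do not overlap between stages, whereas the FT-like Asa6G06199.1 does.

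The genes that changed in the other varieties were used as lists chosen without any Ershuizao library. Of the 776 genes called higher when enlarging in both Chalingzipisuan and Yuanjiangyangsuan, 762 were tested in Ershuizao and 478 (62.7%) were called higher there, beside 5.31% of all genes tested. Of the 1596 genes called lower in both, 1580 were tested and 1183 (74.9%) were called lower, beside 7.65% of all genes tested. None of either list was called in the opposite direction. Their median log2 fold changes in Ershuizao were 1.29 and -1.57. The shared genes made up 30.4% of the higher and 52.2% of the lower calls of Ershuizao.

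Some calls of Ershuizao were seen in neither other variety. Of its higher calls, 1249 were tested in both other varieties and 228 of these were called in neither. Of its lower calls, 1960 were tested in both and 280 were called in neither. A call in 1 variety alone does not show a difference, so the stage effects were set against each other over all 18 libraries.

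Against Chalingzipisuan, 16 of 33681 genes (0.0475%) had a different stage effect in Ershuizao at limma adjusted p under 0.05, 7 (0.0208%) larger and 9 (0.0267%) smaller, and 1903 genes at unadjusted P under 0.05. Of the 16, 11 were called in both varieties in opposite directions. Without enlarging replicate 3 of Chalingzipisuan there were 187. There were 9 or 10 without its enlarging replicate 1 or 2, without replicate 3 before enlargement of Ershuizao, and without replicate 1 or 2 before or enlarging replicate 2 of Yuanjiangyangsuan, and 11 to 21 without any other library. Against Yuanjiangyangsuan, 435 genes (1.29%) differed, 198 of them (0.588%) larger in Ershuizao and the others (0.704%) smaller, and 5469 genes passed at unadjusted P. Of the 435, only 256 passed the abundance filter in Ershuizao, and a gene not tested there counts as not called. With that limit, 326 were called in Yuanjiangyangsuan alone, 27 in Ershuizao alone and 14 in both in opposite directions. Without enlarging replicates 1, 2 and 3 of Ershuizao the count was 232, 258 and 233, and without its replicates 1 and 3 before enlargement 195 and 144. With Yuanjiangyangsuan left without its enlarging replicate 1, 2 or 3 the count was 680, 153 or 214, and without its replicate 2 or 3 before enlargement it was 262 or 192. The omission of enlarging replicate 3 of Chalingzipisuan gave 779.

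The CDF2-like gene Asa8G01471.1 was the listed gene whose stage effect differed between varieties. It rose in Ershuizao, whereas Chalingzipisuan had 8.48 to 13.5 FPKM when enlarging and 24.7 to 30.9 FPKM before, and Yuanjiangyangsuan had 5.50 to 8.17 FPKM when enlarging and 9.59 to 12.5 FPKM before. The stage effect of Ershuizao minus that of Chalingzipisuan was 3.50 ± 0.48 (adjusted p = 0.0119, limma), and minus that of Yuanjiangyangsuan 2.84 ± 0.48 (adjusted p = 0.011). None of the other 18 listed genes passed this test where it could be made; for the FT-like Asa6G06199.1 the differences were -0.77 ± 0.95 and -1.32 ± 0.95.

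Among the 7 genes with a larger effect than in Chalingzipisuan were 3 with consecutive identifiers, Asa3G01470.1, Asa3G01471.1 and Asa3G01472.1, picked out after their values were seen. Asa3G01470.1 had 3.47, 4.28 and 2.32 FPKM in enlarging Ershuizao bulbs and 0.602, 0 and 0.0663 FPKM before. In Chalingzipisuan it had 0.163 to 0.837 FPKM when enlarging and 4.92 to 6.57 FPKM before, a difference between the stage effects of 5.20 ± 0.51 (adjusted p = 0.000917, limma). For Asa3G01471.1 and Asa3G01472.1 the differences from Chalingzipisuan were 4.16 ± 0.49 and 3.30 ± 0.42. Only enlarging Ershuizao and Chalingzipisuan before enlargement had Asa3G01470.1 and Asa3G01471.1 at an FPKM of 0.5 or more in every library. These 2 genes passed the filter through the groups where they were high, so that their differences are not independent of it. If the 3 are near-identical copies, reads could have been shared among them, which was not tested.

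**Figure D4:**
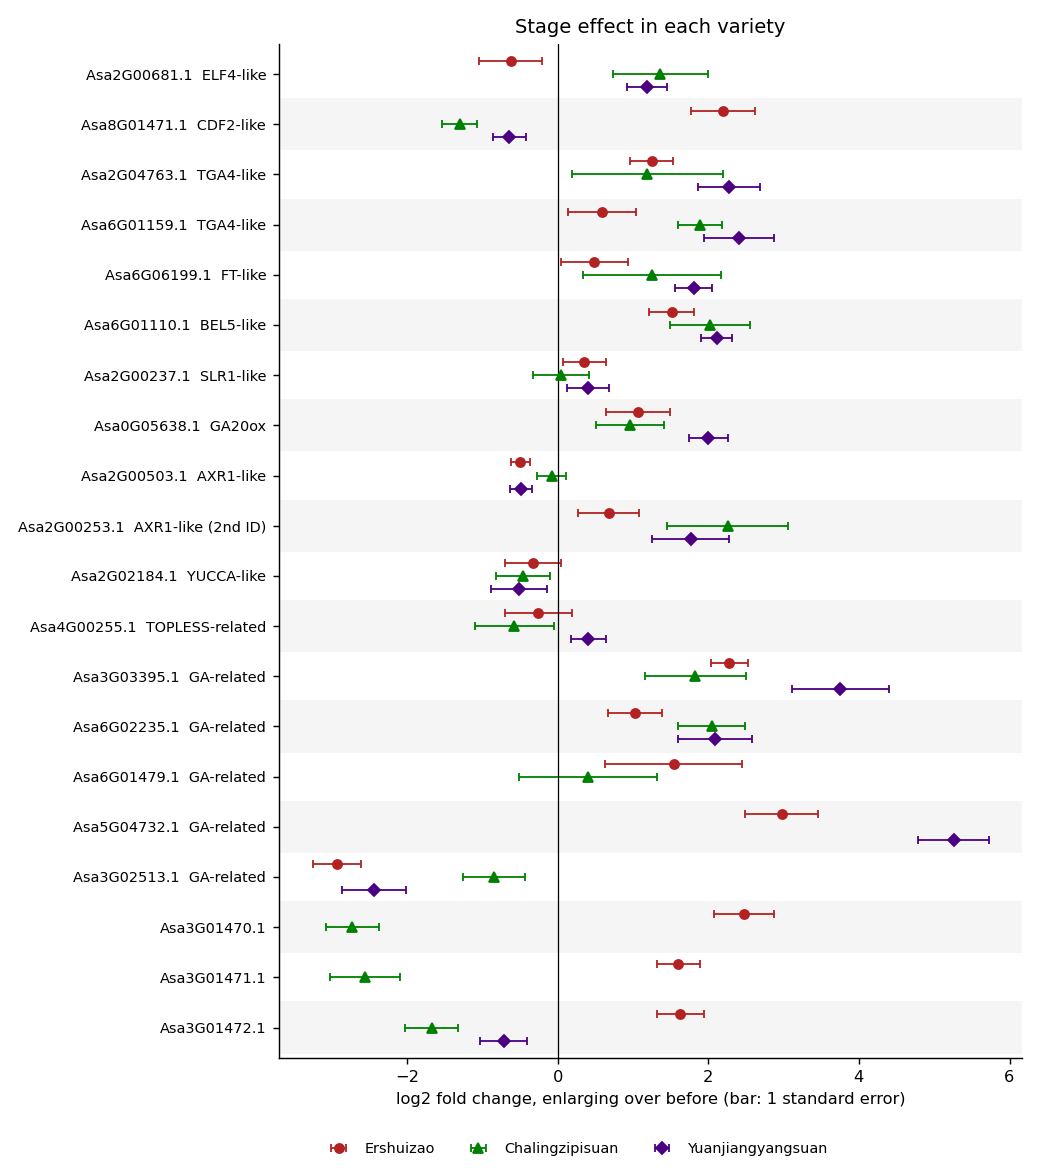
Log2 fold change, enlarging over before, with 1 standard error, of the listed genes and the 3 consecutive genes in Ershuizao (red circles), Chalingzipisuan (green triangles) and Yuanjiangyangsuan (purple diamonds), where tested. For the CDF2-like Asa8G01471.1 Ershuizao lies at 2.20 and the other varieties at -1.30 and -0.64.

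The most abundant transcripts took a larger share of the pool in each enlarging library than in each earlier one. The 10 most abundant genes held 8.64%, 6.94% and 7.77% of the FPKM total in the enlarging libraries, against 5.80%, 4.56% and 5.14% before enlargement. The stages did not overlap, with a difference of 2.62 percentage points (exact two-sided permutation p = 0.1, the smallest that 3 against 3 allows). As a share of the recovered fragments the difference was smaller, 1.11 percentage points, with means of 6.75% when enlarging and 5.64% before (exact two-sided permutation p = 0.1). The single most abundant gene in every Ershuizao library, Asa4G02790.1, had 20686, 17996 and 19892 FPKM when enlarging and 18108, 10231 and 15041 FPKM before, and was not called (log2 fold change 0.47 ± 0.25, limma adjusted p = 0.27).

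Fewer genes were detected in each enlarging library than in each earlier one. Values above 0 were found for 33742, 33085 and 33455 genes when enlarging and for 34014, 33978 and 34172 genes before, a mean difference of -627 genes, enlarging minus before (exact two-sided permutation p = 0.1). The enlarging libraries held 10340511 to 11224552 fragments on genes and the earlier ones 11079541 to 13452277, and the part of depth in this difference was not tested. At an FPKM of at least 0.5 the difference was -418 genes, with overlap between the stages (exact two-sided permutation p = 0.2).

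Called genes were found at every chromosome digit and every level of abundance. By the chromosome digit in the identifier (0 to 8), 4.73% to 6% of the genes tested were higher and 6.70% to 8.88% lower. In 5 groups of equal size by mean FPKM, 4.35% to 6.60% were higher and 6.19% to 8.69% lower, with the highest shares of both in the most abundant group. Genes with neighbouring identifiers often moved together. Of the genes with a tested neighbour, 26.6% of the higher genes had a neighbour called higher, against 6.03% of the other genes, and 26.2% of the lower genes had a neighbour called lower, against 9.01% of the others. The longest run of consecutive called genes was 4 for higher and 5 for lower genes. Neighbouring copies of 1 gene family can share reads, and their part in this was not tested.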

How the data were processed

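RNA of 3 Ershuizao individuals per stage was made into libraries with a NEBNext Ultra kit. The authors aligned the paired reads to the garlic reference genome with HISAT2 and deposited FPKM values per gene; the counting tool is not given in the sources used here. The lowest FPKM values were whole multiples of a step. Fragments and gene lengths were recovered for all 39933 genes above 0 in at least 2 libraries, which hold 99.7% of the values above 0. The tolerance was 0.0003 from a whole number plus 1e-08 per fragment, and the largest distance was 0.000694. The 6 libraries held 10340511 to 13452277 fragments on genes, 81.6% to 87.0% of each total; intervals and floors cover counting error only.

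Values were tested as log2(FPKM + 0.5) with limma 3.58.1 in R 4.3.3 (trend and robust moderation, no covariate, two-sided), for genes reaching an FPKM of 0.5 in 3 or more of the 6 libraries. A call is P under 0.05 and more than 2-fold, the study's thresholds; adjusted p values are Benjamini-Hochberg over all genes tested. Differences between varieties were contrasts over all 18 libraries, for genes reaching 0.5 in 3 or more of them. Of the 57561 genes, 19460 were at 0 in all 6 libraries and 8462 were above 0 but under the filter; 150 genes passed only through the enlarging libraries and 310 only through the earlier ones, and such genes had to differ to pass (111 and 234 were called). The fits and the recovery were tested on simulated data. Alternatives were other pseudocounts, filters, scalings, moderation, a replicate block, voom on recovered fragments and leaving out each library. Named genes were the garlic genes the study's text names for photoperiod, gibberellin and bud outgrowth, 5 other gibberellin-related genes, and the 2 largest rises and 2 largest falls with adjusted p under 0.05 and no overlap. The members and lists were chosen with earlier results of these data known.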

Additional observations from a re-analysis of the deposited data

Results flagged for a closer look

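The stage effect of the CDF2-like Asa8G01471.1 in Ershuizao differed from that in Chalingzipisuan by 3.50 ± 0.48 and from that in Yuanjiangyangsuan by 2.84 ± 0.48 on the log2 scale (limma adjusted p = 0.0119 and 0.011), and its levels moved in opposite directions, up in all 3 enlarging Ershuizao libraries and down in all 3 enlarging libraries of each other variety. Leaving out 1 library at a time kept both differences at adjusted p under 0.05. Tested within each other variety, neither fall had adjusted p under 0.05. The log2 changes were -1.30 ± 0.23 in Chalingzipisuan (adjusted p = 0.0968, limma) and -0.64 ± 0.22 in Yuanjiangyangsuan (adjusted p = 0.0536), the latter under 2-fold.

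The stage effect of Asa3G01470.1 differed by 5.20 ± 0.51 from Chalingzipisuan (limma adjusted p = 0.000917) and by 2.46 ± 0.51 from Yuanjiangyangsuan (adjusted p = 0.0296). The difference from Yuanjiangyangsuan had adjusted p of 0.0558 to 0.0916 without Ershuizao before 2, before 3, enlarging 1 or enlarging 2, and without Yuanjiangyangsuan before 1, before 3, enlarging 2 or enlarging 3, and of 0.104 with a pseudocount of 0.1. That of Asa3G01471.1 differed by 4.16 ± 0.49 from Chalingzipisuan (adjusted p = 0.00411), while its difference of 1.66 ± 0.49 from Yuanjiangyangsuan did not pass (adjusted p = 0.105). That of Asa3G01472.1 differed by 3.30 ± 0.42 from Chalingzipisuan (adjusted p = 0.00826) and by 2.34 ± 0.42 from Yuanjiangyangsuan (adjusted p = 0.0147). These 3 genes were picked out after their values were seen. They were of low abundance, with 8 to 47 fragments per enlarging Ershuizao library and 0 to 8 before. Asa3G01470.1 and Asa3G01471.1 passed the filter through the groups where they were high.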

How the results depend on the processing

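At the study's thresholds 1574 genes were higher and 2266 lower in enlarging Ershuizao bulbs; 630 and 768 had adjusted p under 0.05 as well (limma), and 3520 and 4388 passed P under 0.05 with no minimum fold. The other pseudocounts, filters, scalings, moderation, fits and voom gave 1296 to 1764 higher and 1893 to 2540 lower, and no scaling moved the median change by over 0.1. With 1 library left out, the counts were 1289 to 2093 higher and 1483 to 2859 lower. The 16 genes that differed from Chalingzipisuan became 9 to 187 with 1 library left out, and the 435 that differed from Yuanjiangyangsuan became 144 to 779, and 252 with a pseudocount of 0.1. The genes seen at 1 stage only, 11 and 35, became 6 and 22 at an FPKM of at least 1, and 19 to 50 and 46 to 86 with 1 library left out. Lists of genes called in both other varieties at adjusted p held only 12 higher and 47 lower genes. They gave 75% and 93.6% called the same way in place of 62.7% and 74.9%, an alternative chosen after seeing the data. The value of Asa4G00255.1 was -0.26 and lay between -0.58 and 0.061 with 1 library left out.

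Deviations of same-numbered Ershuizao libraries correlated at 0.08, 0.06 and 0.01, which gave little sign of pairing by replicate number. Pairing in the other varieties was not checked. With the replicate block, 1602 genes were higher and 2325 lower, 803 and 1112 of them at adjusted p. The differences fell to 0 genes from Chalingzipisuan (limma, with 1680 at unadjusted P under 0.05) and 37 from Yuanjiangyangsuan, and the CDF2-like Asa8G01471.1 had adjusted p = 0.107 and 0.0494. Against Chalingzipisuan, Asa3G01470.1, Asa3G01471.1 and Asa3G01472.1 had adjusted p of 0.0586, 0.213 and 0.254 under the block, and against Yuanjiangyangsuan Asa3G01470.1 had 0.118 and Asa3G01472.1 had 0.123. The cause of these changes was not tested.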
